A study of Mus musculus with 47 samples.

Results

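Loss of the transcription factor MyoD was read by setting muscle progenitor cells of MyoD-/- embryos against those of wild type embryos. The members were taken by their genotype labels, 18 MyoD-/- arrays and 10 wild type arrays, 28 of the 47 arrays of the series. All embryos were at stage E17.5, on a background mixed from 129/Ola, 129/Sv and C57BL/6. Cells came from back muscle and were sorted for Vcam-1, a surface adhesion protein that muscle progenitors carry, and against CD31, CD45 and Sca1, which mark endothelial, blood and interstitial cells. Total RNA was read on Illumina bead arrays. The labels give no Cre and no other allele in either genotype, and they do not say which MyoD allele was used or whether embryos were pooled. Arrays at the same position of chips 6 and 7 were averaged, which left 16 MyoD-/- samples and 9 wild type samples. The remaining arrays, of MyoD+/- cells and of Pax3cre/+;DnMamlflox/flox;MyoD-/- and Pax3cre/+;Rbpjflox/flox;MyoD-/- cells, entered the fit for the chip effects and the spread alone.

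MyoD is a basic helix-loop-helix factor that binds short E-box sequences beside muscle genes, recruits chromatin remodellers and histone acetyltransferases, and commits cells to the muscle fate. Its relatives Myf5, Mrf4 (Myf6) and myogenin share part of this work, and mice without MyoD still form muscle. Fetal progenitors lie next to the growing fibres under a basement membrane and are held undifferentiated by Notch signals from their neighbours.

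The labelled cell type was checked against defining genes. Vcam1, the gene of the sorting marker, was detected in 18 of the 18 MyoD-/- arrays and 10 of the 10 wild type ones and averaged 14.36 ± 0.29 in 16 MyoD-/- samples and 13.76 ± 0.24 in 9 wild type samples (SD), a rise of 0.70 ± 0.11 (SE of the fit). These levels, like all below, are log2 normalised intensities. The progenitor factor Pax7 was above background in 0 of the 18 MyoD-/- arrays and 1 of the 10 wild type ones, Pax3 in 0 and 0, and Myf5 in 2 and 0, so these defining genes were at or near background on nearly all arrays. Of the genes of the excluded cells, Ptprc (CD45) and the endothelial genes Cdh5 and Kdr were detected in 0 arrays of either genotype, and Pecam1 (CD31) in 2 of the 18 MyoD-/- arrays and 3 of the 10 wild type ones. The gene of Sca1 had no probe in the table. The median intensity per array ran from 73.2 to 211 in MyoD-/- and from 87.3 to 233 in wild type arrays, and 9109 to 11768 probes against 8761 to 11561 were above background. The Y-linked transcript Eif2s3y was detected in 11 of the 18 MyoD-/- arrays and 4 of the 10 wild type ones, and Xist in the other 7 and 6.

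Myod1 itself checks the labels. Its level ran from 8.98 to 9.63 (median 9.28) in MyoD-/- samples and from 10.76 to 11.47 (median 11.10) in wild type samples. All MyoD-/- samples lay below all wild type samples, and the log2 change was -1.93 ± 0.10 (SE of the fit, adjusted p = 4.07e-16). Within each of the 5 chip sets with samples of both genotypes the change lay between -2.38 and -1.53. MyoD+/- samples averaged 10.84 ± 0.11 (SD, n = 3). The probe was still above background in 18 of 18 MyoD-/- arrays, and its place relative to the mutated sequence is not given here.

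**Figure D1:**
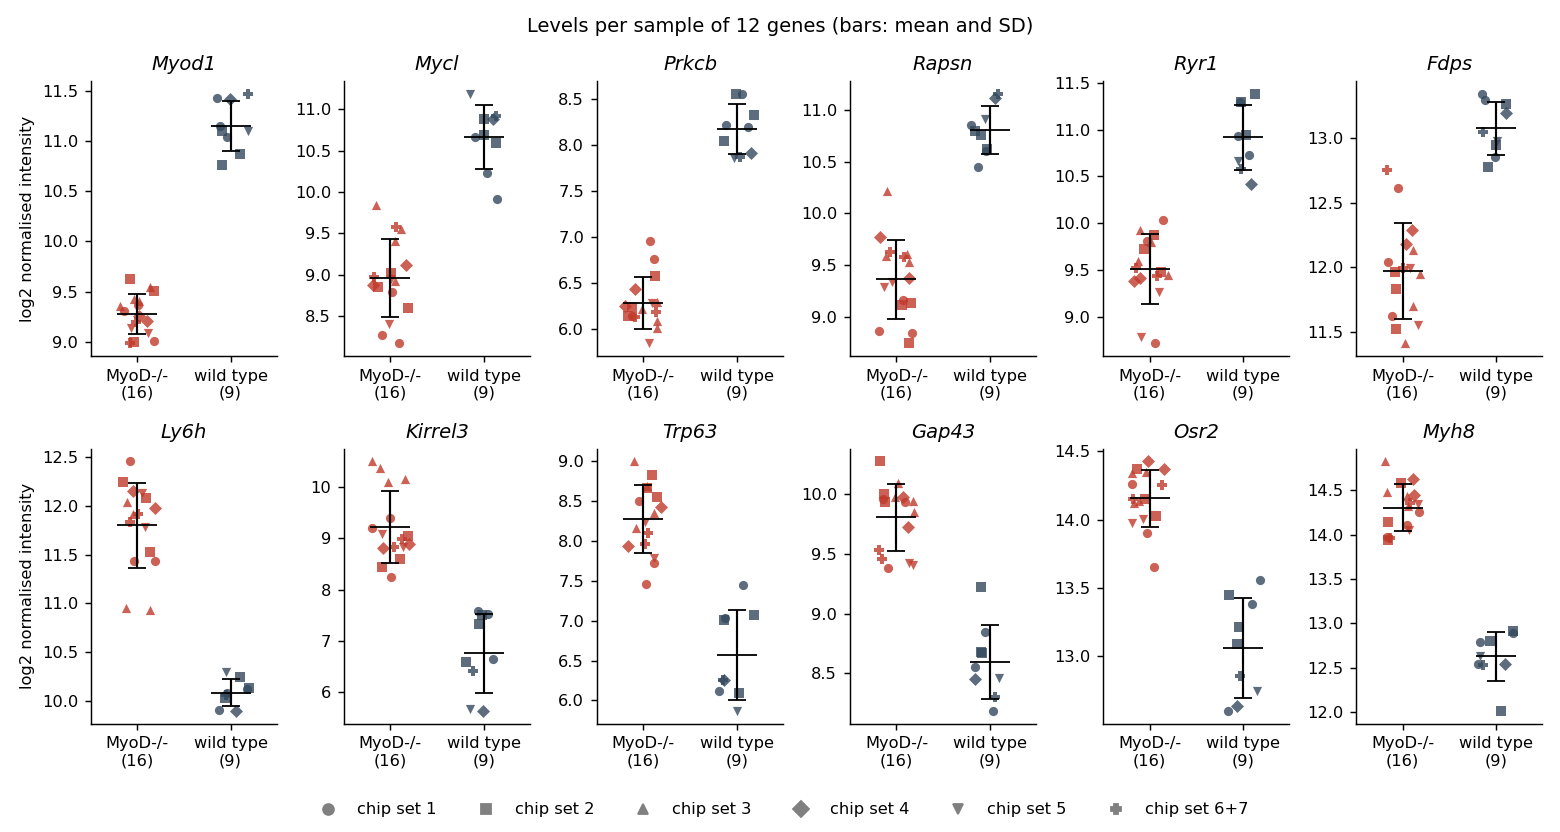
Log2 normalised intensity of 12 genes in each MyoD-/- sample (red, n = 16) and each wild type sample (dark, n = 9), with 1 marker shape per chip set and bars for the mean and SD. In the upper row all MyoD-/- samples lie below all wild type samples and in the lower row all lie above them.

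Of 8658 genes tested, 929 were higher (10.7%) and 985 lower (11.4%) in MyoD-/- samples, 1914 in all (22.1%), at an adjusted p under 0.05. Most changes were small. Of the 8658 genes 150 (1.73%) were called with a log2 change of 1 or more in size. In 31 genes (0.358%) all MyoD-/- samples lay above all wild type samples, and in 35 (0.404%) all lay below. The 5 chip sets gave the same sign in 1426 of the 1914 called genes (74.5%), against 2310 of the 8658 tested (26.7%). The called genes were picked by a fit to these same chip sets and are among the 8658, so the shares are no independent check. In bulk samples fewer cells of a type and less RNA per cell cannot be told apart, here and below. When arrays were scaled to a common median instead, which moved the median change of all genes to 0.08, against -0.02 with quantile normalisation, 802 genes were higher and 370 lower. With the median taken over probes detected on every array, 786 were higher and 1138 lower.

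**Figure D2:**
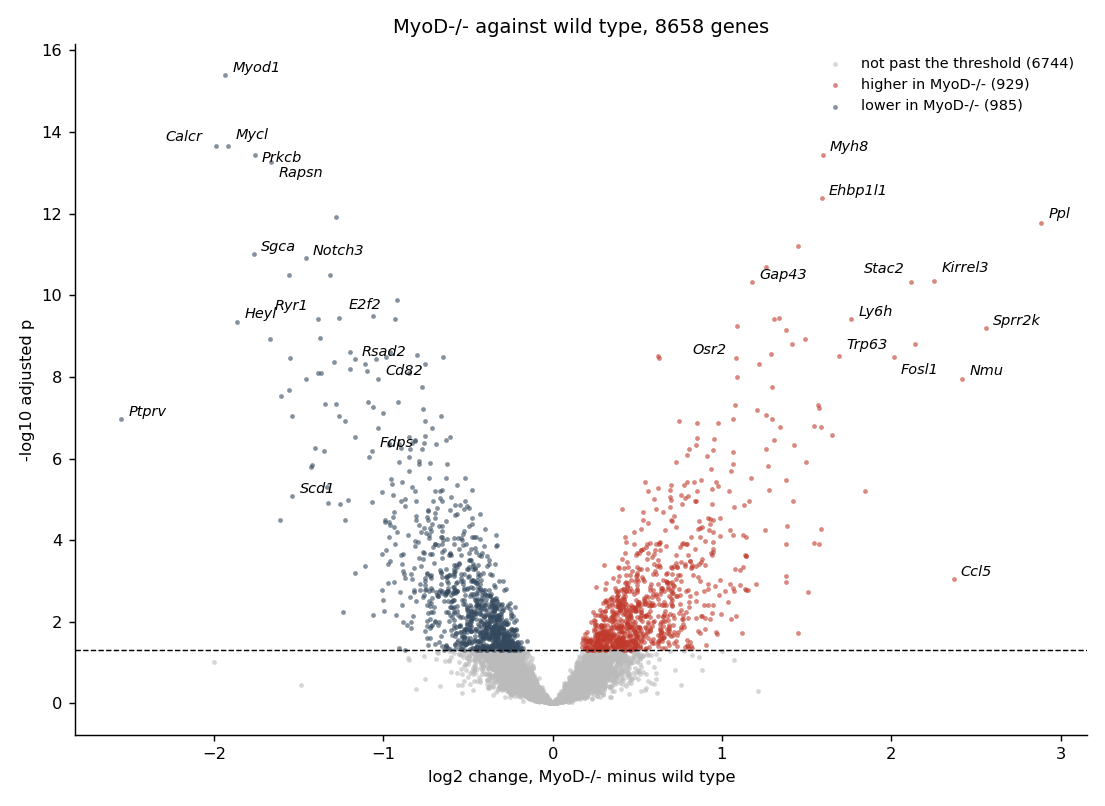
Log2 change (MyoD-/- minus wild type) on the x axis against -log10 of the adjusted p on the y axis for the 8658 genes tested; the dashed line is the threshold. Myod1 has the lowest adjusted p (4.07e-16) and Ptprv has the lowest fitted change (-2.55). The point farthest right is Ppl, at background on all wild type arrays, so its place shows no measured fold.

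Transcription factors of the muscle programme split. Of 25 measured, 6 rose (3 without chip set 1, 2 without chip set 2), 4 fell and 15 did not pass. That is 40% called against 22.1% of all genes. Myod1, the mutated gene, is among the 4 falls and is counted in the 40%. The median change was 0.15, against -0.02 over all genes tested. The Myc family gene Mycl ran from 8.17 to 9.84 (median 8.93) in MyoD-/- samples and from 9.92 to 11.19 (median 10.69) in wild type samples, without overlap, a change of -1.92 ± 0.12 (adjusted p = 2.18e-14). Pitx3, a homeodomain factor of myogenic cells, ran from 7.15 to 8.25 (median 7.67) in MyoD-/- samples and from 8.78 to 9.86 (median 9.07) in wild type samples. It too separated the genotypes (-1.56 ± 0.13, adjusted p = 3.13e-11). Myogenin, Myog, which drives terminal differentiation, ran from 7.64 to 10.05 (median 8.71) in MyoD-/- samples and, with overlap, from 8.59 to 11.52 (median 9.26) in wild type samples. The change was -1.23 ± 0.21 (adjusted p = 3.22e-05), and a second probe, detected in 8 and 4 arrays, gave -0.27 ± 0.23 (adjusted p = 0.429). The other 6 called members were all higher: Snai1 (0.88), Eya1 (0.75), Klf5 (0.63), the MyoD relative Myf6 (0.58), Mef2a (0.39) and Nfix (0.29), named after their values were seen.

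Of 27 genes that MyoD works with on chromatin 3 rose, 4 fell and 20 did not pass, 25.9% called against 22.1% of all genes, with a median of -0.07. Smarcd3 encodes BAF60c, the subunit through which the SWI/SNF remodeller meets MyoD. It ran from 9.28 to 10.34 (median 9.74) in MyoD-/- samples and, with overlap, from 10.11 to 10.92 (median 10.55) in wild type samples, and fell by 0.80 on the log2 scale (SE 0.08, adjusted p = 2.98e-09). Hdac5, a histone deacetylase that restrains Mef2 factors, ran from 11.96 to 12.85 (median 12.44) in MyoD-/- samples and, with overlap, from 11.46 to 12.20 (median 11.72) in wild type samples. Its rise of 0.69 ± 0.11 (adjusted p = 1.5e-05) was matched by its other probes, at 0.79 ± 0.13 and 0.72 ± 0.10. The remodeller ATPase Smarca2 (0.45 ± 0.09) and the histone demethylase Kdm1a (0.36 ± 0.08) rose by less, and their calls were lost on chip sets 1 and 2 only (Smarca2) or on chip sets 4, 5 and 6+7 only (Kdm1a).

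Of 15 genes of the neuromuscular synapse measured, 7 fell, 1 rose and 7 did not pass, where 11.4% of all genes were called lower, and the median was -0.33. With arrays scaled to a common median 5 fell. Rapsn, which clusters acetylcholine receptors, ran from 8.74 to 10.22 (median 9.35) in MyoD-/- samples and from 10.45 to 11.16 (median 10.80) in wild type samples. The groups were apart, with a change of -1.66 ± 0.11 (adjusted p = 5.54e-14) and -1.73 and -1.64 by its other probes. The fetal receptor subunit Chrng ran from 10.46 to 11.72 (median 11.18) in MyoD-/- samples and, with overlap, from 11.32 to 12.27 (median 11.84) in wild type samples and changed by -0.85 ± 0.11 (adjusted p = 2.97e-07). Chrna1, the subunit that binds acetylcholine, ran from 9.78 to 11.06 (median 10.56) in MyoD-/- samples and, with overlap, from 10.88 to 12.20 (median 10.98) in wild type samples, a change of -0.94 ± 0.16 (adjusted p = 2.73e-05). Agrin, Agrn, the nerve and muscle signal that organises the receptors, fell less (-0.63 ± 0.09). The growth factor Nrg1 was the rise (0.65 ± 0.14), and its call was lost on chip sets 1 and 2 only.

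Among 26 regulators of G-protein and kinase signalling 6 rose (3 without chip set 2 or without MyoD-/- replicate 5) and 6 fell. That is 46.2% called against 22.1% of all genes. Prkcb, the beta isoform of protein kinase C, ran from 5.85 to 6.95 (median 6.23) in MyoD-/- samples and from 7.86 to 8.56 (median 8.20) in wild type samples. It was above background in 2 of the 18 MyoD-/- arrays and 10 of the 10 wild type ones, and the signals did not overlap (fitted change -1.76 ± 0.11, adjusted p = 3.6e-14). Where a gene is given as above background in few arrays of a genotype, here and below, its fitted change is a difference of signals and no measured fold. Prkcq, the theta isoform prominent in skeletal muscle, ran from 6.83 to 8.32 (median 7.80) in MyoD-/- samples and from 8.53 to 9.48 (median 8.78) in wild type samples, a change of -1.07 ± 0.17 (adjusted p = 1.15e-05), also without overlap. Rgs17, which shortens G-protein signals, rose by 2.14 ± 0.21. Rgs8, a relative, was above background in 1 of the 18 MyoD-/- arrays and 8 of the 10 wild type ones and fell (fitted change -1.17 ± 0.15, adjusted p = 3.02e-07).

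The 3 promoters with the most CAGCTG, an E-box form that MyoD binds, among the named genes that fell are those of Prkcb, Chrna1 and Chrng (ties taken by the size of the change). They are printed 5′ to 3′ on the gene's strand from RefSeq (GRCm38.p6), 250 bases before to 50 after the first start listed, with CAGCTG in capitals. Prkcb lies at chr7:122288875-122289174 (plus strand) and holds 4. Chrna1 lies at chr2:73580289-73580588 (minus strand) and Chrng at chr1:87205561-87205860 (plus strand), with 2 each.
Prkcb: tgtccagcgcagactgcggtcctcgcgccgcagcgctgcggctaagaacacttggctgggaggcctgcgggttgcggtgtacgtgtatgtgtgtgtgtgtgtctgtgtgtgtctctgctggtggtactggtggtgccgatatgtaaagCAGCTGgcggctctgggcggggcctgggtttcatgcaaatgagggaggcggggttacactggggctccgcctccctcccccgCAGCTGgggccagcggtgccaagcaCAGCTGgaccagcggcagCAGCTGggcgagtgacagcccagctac
Chrna1: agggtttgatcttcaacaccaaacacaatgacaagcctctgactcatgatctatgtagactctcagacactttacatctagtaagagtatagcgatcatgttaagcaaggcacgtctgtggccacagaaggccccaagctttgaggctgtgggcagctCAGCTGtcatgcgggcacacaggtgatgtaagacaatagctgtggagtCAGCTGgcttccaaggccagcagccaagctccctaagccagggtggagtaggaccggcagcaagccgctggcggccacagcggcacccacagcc
Chrng: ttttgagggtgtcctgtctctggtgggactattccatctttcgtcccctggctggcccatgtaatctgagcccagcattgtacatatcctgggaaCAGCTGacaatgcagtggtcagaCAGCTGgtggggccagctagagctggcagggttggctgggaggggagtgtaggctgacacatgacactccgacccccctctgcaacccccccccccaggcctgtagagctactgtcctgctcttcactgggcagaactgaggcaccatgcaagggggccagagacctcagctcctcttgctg
CAGCTG, which reads the same on both strands, stood in 137 of the 791 promoters found for called falls (17.3%), in 1037 of 7028 for all genes tested (14.8%) and in 4353 of all 27025 promoters (16.1%). A promoter was found for 81.2% of the genes tested and 80.3% of the falls, but for 78.7% of the rises, under the 80% asked, so no share is given for rises. At least 2 copies stood in 17 of the 791 (2.15%) and in 96 of the 7028 (1.37%). Of 27 sarcomere promoters 12 held CAGCTG (44.4%), of 62 promoters of oxidative phosphorylation genes 4 (6.45%) and of 51 ribosomal protein promoters 3 (5.88%). A match is a run of letters and was not tested as a binding site.

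Sarcomere genes were lower in part, and the falls differed in number between chip sets. Of 32 measured 10 fell, 4 rose and 18 did not pass (median -0.15), 43.75% called against 22.1% of all genes. On chip sets 1 and 2 alone, 6 fell and 5 rose (median 0.01). On chip sets 4, 5 and 6+7 alone, 18 fell and 1 rose (median -0.57). Genes of excitation and calcium handling had 4 falls and 4 rises of 22, 36.4% called (median -0.14). Ryr1, the calcium release channel, ran from 8.71 to 10.03 (median 9.50) in MyoD-/- samples and from 10.42 to 11.39 (median 10.93) in wild type samples, a change of -1.39 ± 0.13 (adjusted p = 3.86e-10). Its partner at the triad Jsrp1 ran from 5.36 to 7.29 (median 6.73) in MyoD-/- samples and from 7.92 to 8.66 (median 8.17) in wild type samples and changed by -1.56 ± 0.18 (adjusted p = 2.11e-08). In both genes the genotypes did not overlap. Jsrp1 was above background in 11 of the 18 MyoD-/- arrays and 10 of the 10 wild type ones. Ttn, the giant spring protein titin, was above background in 12 of the 18 MyoD-/- arrays and 10 of the 10 wild type ones (-1.67 ± 0.16), slow troponin Tnnt1 changed by -0.96 ± 0.10 and the fast-fibre actinin Actn3 by -1.11 ± 0.12.

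Some muscle genes went the other way. Myh8, the perinatal myosin heavy chain, ran from 13.94 to 14.83 (median 14.34) in MyoD-/- samples and from 12.01 to 12.92 (median 12.63) in wild type samples. The gap was complete, at 1.60 ± 0.10 (adjusted p = 3.6e-14) and 1.90 ± 0.11 by a second probe. Parvalbumin, Pvalb, a calcium buffer of fast fibres, was above background in 17 of the 18 MyoD-/- arrays and 1 of the 10 wild type ones (fitted change 1.54 ± 0.19, adjusted p = 1.58e-07). The adaptors of the calcium channel complex parted. Stac2 was detected in 18 of the 18 MyoD-/- arrays and 0 of the 10 wild type ones, averaged 8.02 ± 0.48 in MyoD-/- and 5.90 ± 0.32 in wild type samples (SD) and was at least 2.42-fold higher (adjusted p = 4.73e-11). Stac3, the adaptor of skeletal muscle, was detected in 2 of the 18 MyoD-/- arrays and 7 of the 10 wild type ones and fell (fitted change -1.33 ± 0.20, adjusted p = 5.04e-06). An "at least" fold divides the mean of the detected genotype by a floor for the other, the dimmest detected signal of each of its arrays or the probe's own signal where that is brighter.

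Membrane and contact genes of muscle cells also split. Of 18 genes of the dystrophin complex 4 fell and 5 rose, 50% called against 22.1% of all genes. Sgca, alpha-sarcoglycan, ran from 7.74 to 9.14 (median 8.76) in MyoD-/- samples and from 9.93 to 10.65 (median 10.33) in wild type samples and separated the genotypes (-1.76 ± 0.14, adjusted p = 9.79e-12); dystroglycan, Dag1, fell by 1.06 on the log2 scale (SE 0.10). The caveola gene Cavin4 rose by 1.13 ± 0.18, a call lost on chip sets 4, 5 and 6+7 only. Of 27 genes of fusion and contact 6 fell and 4 rose. Kirrel3 is an immunoglobulin adhesion molecule of the family that in Drosophila brings myoblasts together. It ran from 8.25 to 10.49 (median 9.01) in MyoD-/- samples and from 5.63 to 7.57 (median 6.65) in wild type samples. The groups did not overlap (fitted change 2.25 ± 0.19, adjusted p = 4.45e-11), but the probe was above background in 5 of the 10 wild type arrays. The tetraspanin Cd82 ran from 11.58 to 12.61 (median 12.08) in MyoD-/- samples and from 12.62 to 13.16 (median 13.05) in wild type samples and fell in every MyoD-/- sample below the wild type range (-1.03 ± 0.11, adjusted p = 1.11e-08). Jam2, a junction adhesion molecule, was above background in 0 of the 18 MyoD-/- arrays and 4 of the 10 wild type ones, too dim for a fold (adjusted p = 9.94e-06).

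Genes of cholesterol and fatty acid synthesis were lower at many steps. Cells make sterols from acetyl-CoA through mevalonate and farnesyl diphosphate, and SREBP factors set the level of these enzymes together. Of 32 genes measured 16 fell, 1 rose and 15 did not pass, 53.1% called against 22.1% of all genes. The median was -0.47. Taken within each of the 5 chip sets it ran from -0.46 to -0.28. Fdps, which makes farnesyl diphosphate, ran from 11.41 to 12.75 (median 11.98) in MyoD-/- samples and from 12.78 to 13.34 (median 13.04) in wild type samples. All MyoD-/- samples were below all wild type samples, with a change of -1.07 ± 0.14 (adjusted p = 6.45e-07). Along the pathway Hmgcs1 (-0.73 ± 0.13), Mvd (-0.66 ± 0.14), Idi1 (-0.87 ± 0.19), Sqle (-0.57 ± 0.14), Cyp51 (-0.53 ± 0.12), Msmo1 (-0.94 ± 0.21), Nsdhl (-0.81 ± 0.15) and Dhcr7 (-0.77 ± 0.18) were called lower. They include the synthase at its start, some mevalonate enzymes and some later steps to cholesterol. Pmvk (-0.25 ± 0.11), Lss (-0.47 ± 0.23), Hsd17b7 (-0.24 ± 0.09), Ebp (-0.10 ± 0.08) and Sc5d (-0.32 ± 0.15), of the same pathway, did not pass. Idi1 was above background in 2 of the 18 MyoD-/- arrays and 6 of the 10 wild type ones, and Dhcr7 in 11 and 9. Srebf2, the SREBP gene of the sterol branch, was lower too (-0.47 ± 0.10), as was Stard4, a sterol carrier (-0.70 ± 0.12, adjusted p = 2.91e-05).

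The rise was Insig2, which holds SREBP in the endoplasmic reticulum (0.50 ± 0.11), while Insig1 (-0.24 ± 0.16), Scap (-0.09 ± 0.09) and Srebf1 (-0.21 ± 0.14) did not pass. Of the fatty acid enzymes, Scd1, which puts the double bond into oleic acid, ran from 6.63 to 8.27 (median 7.45) in MyoD-/- samples and, with overlap, from 7.95 to 10.18 (median 8.76) in wild type samples, a change of -1.54 ± 0.24 (adjusted p = 8.44e-06). The desaturases Fads1 (-0.48 ± 0.08) and Fads2 (-0.52 ± 0.12) and the elongase Elovl6 (-0.50 ± 0.11) were lower, but fatty acid synthase, Fasn (-0.09 ± 0.15), and Acly (-0.03 ± 0.10) did not pass. Scaled to a common median the list had 10 falls and a median of -0.36; on chip sets 1 and 2 only it had 13 falls and on chip sets 4, 5 and 6+7 only 12. Members other than Fdps, Scd1, Stard4 and Fads1 were named after their values were seen.

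**Figure D3:**
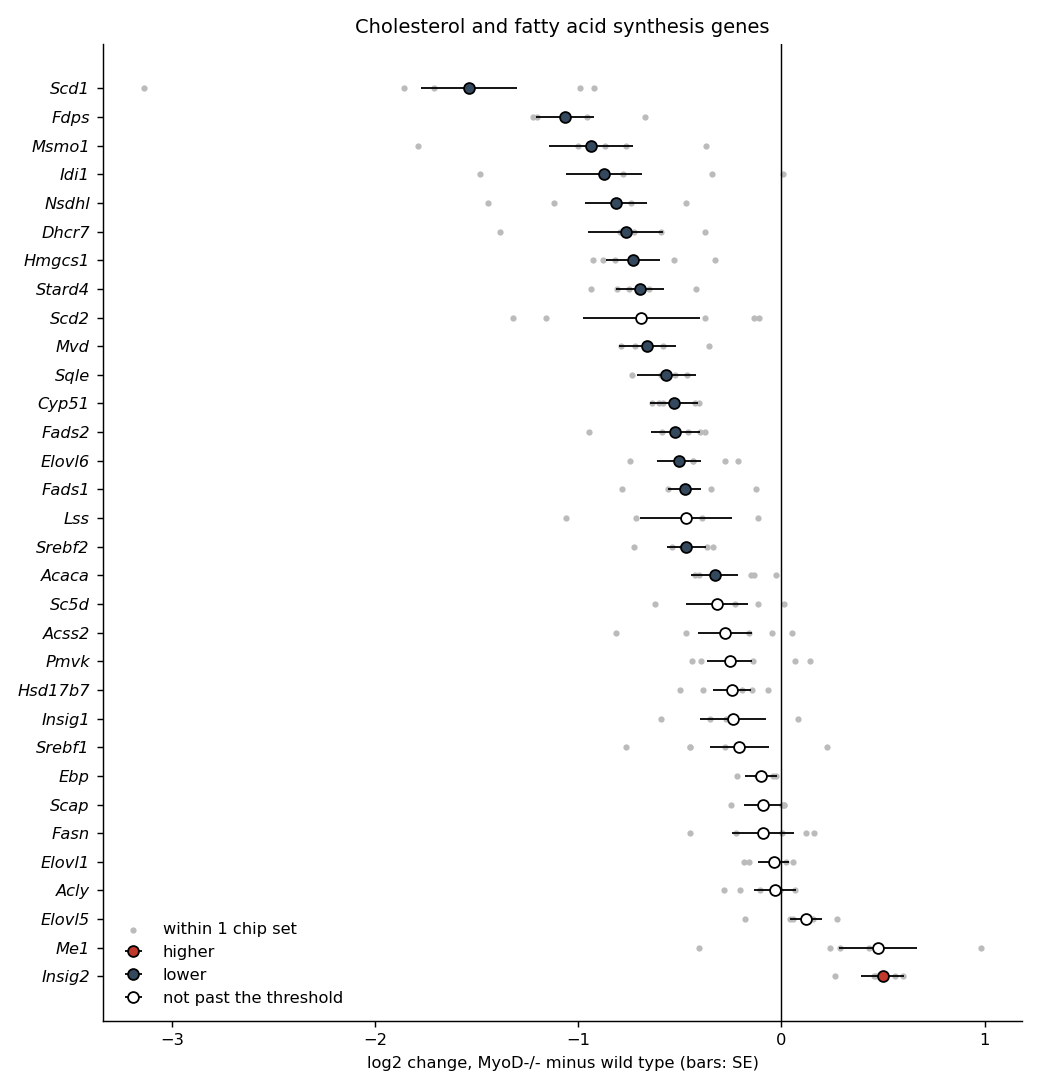
Log2 change (MyoD-/- minus wild type) of the 32 measured genes of cholesterol and fatty acid synthesis, with the SE of the fit as bars and the change within each of the 5 chip sets as grey points. Scd1 (-1.54) and Fdps (-1.07) have the largest falls and Insig2 (0.50) is the rise.

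Of 73 nuclear-encoded genes of oxidative phosphorylation 20 fell, 0 rose and 53 did not pass, where 11.4% of all genes were called lower, and the median was -0.14. The falls numbered 11 without chip set 1, 4 without chip set 2 and 13 without chip set 5. The complex I subunit Ndufs7 ran from 12.64 to 13.48 (median 12.996) in MyoD-/- samples and, with overlap, from 13.17 to 13.57 (median 13.27) in wild type samples, a change of -0.34 ± 0.07 (adjusted p = 0.000376). Ndufa8, Ndufc2 and Ndufs8 changed by -0.33 ± 0.06, -0.37 ± 0.09 and -0.34 ± 0.08. After scaling to a common median 1 of the 73 was lower and their median was -0.06, and all 4 named calls were lost. Of 23 genes of muscle energy metabolism 6 fell and 1 rose, 30.4% called against 22.1% of all genes. The phosphoglycerate mutase Pgam2 changed by -1.09 ± 0.13 and muscle creatine kinase Ckm by -1.16 ± 0.25. The heart and muscle cytochrome oxidase subunit Cox6a2 changed by -1.06 ± 0.29. Ckm and Cox6a2 lost their calls on chip sets 1 and 2 only.

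Of 23 genes of glycolysis and the hypoxia response 6 rose (2 without chip set 2) and 3 fell, 39.1% called against 22.1% of all genes. Adm, the vasodilator peptide adrenomedullin, was above background in 14 of the 18 MyoD-/- arrays and 1 of the 10 wild type ones (fitted change 1.29 ± 0.13, adjusted p = 2.81e-09). Egln3, a prolyl hydroxylase that marks HIF for decay, ran from 9.33 to 11.13 (median 10.26) in MyoD-/- samples and, with overlap, from 8.72 to 9.76 (median 9.22) in wild type samples, a rise of 0.85 ± 0.13 (adjusted p = 6.16e-06). Hif1a itself rose by 0.50 (SE 0.11), a call lost without chip set 2 or on chip sets 4, 5 and 6+7 only. Other enzymes of glycolysis, of which Pfkp, Hk1, Tpi1 and Gapdh were named after their values were seen, split: Pfkp changed by 0.65, Hk1 by 0.44, Tpi1 by -0.22 and Gapdh by -0.15. The liver-type phosphofructokinase Pfkl fell, at -0.44 ± 0.09, a call lost with arrays scaled to a common median.

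Among 50 genes of DNA replication and mitosis 21 fell, 0 rose and 29 did not pass, where 11.4% of all genes were called lower, and the median was -0.26. Without chip set 2 the falls numbered 8. E2f2, an S-phase transcription factor, ran from 10.11 to 11.37 (median 10.76) in MyoD-/- samples and from 11.53 to 12.16 (median 11.95) in wild type samples, with no overlap (-1.26 ± 0.12, adjusted p = 3.61e-10) and -1.26 by a second probe. The cyclin Ccne1 changed by -0.92 ± 0.16, the phosphatase Cdc25b, which opens mitosis, by -0.79 ± 0.15 and the anaphase activator Cdc20 by -0.55 ± 0.11. With arrays scaled to a common median 7 fell, and 3 fell on chip sets 4, 5 and 6+7 only. Of 19 genes of cell cycle exit 3 fell, 1 rose and 15 did not pass, 21.1% called against 22.1% of all genes. The retinoblastoma genes Rb1 (-0.65 ± 0.12) and Rbl1 (-0.60 ± 0.12) and the cyclin Ccnd3 fell, and the inhibitor Cdkn1a rose (0.33 ± 0.11). Each of these 4 calls was lost on chip sets 1 and 2 only or on chip sets 4, 5 and 6+7 only, and that of Cdkn1a also without wild type replicate 4.

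The insulin-like growth factor axis had 0 rises and 5 falls of 15, 33.3% called against 22.1% of all genes. The median was -0.27. Igfbp5, a binding protein of muscle cells, ran from 13.17 to 14.05 (median 13.92) in MyoD-/- samples and from 14.06 to 14.48 (median 14.32) in wild type samples, apart in every sample (-0.53 ± 0.09, adjusted p = 7.02e-05). The adaptor Irs2 (-0.50 ± 0.10), the receptor Igf2r (-0.41 ± 0.09) and Igfbp4 (-0.35 ± 0.10) fell too. Scaling to a common median left 1 fall, Igfbp5, and ended the other 4 calls.

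Notch receptors, ligands and targets had 0 rises and 11 falls of 24, 45.8% called against 22.1% of all genes. Their median was -0.24. Hey1, a repressor that Notch switches on, ran from 11.03 to 12.52 (median 11.76) in MyoD-/- samples and from 12.66 to 13.28 (median 12.95) in wild type samples. The receptor gene Notch3 ran from 9.72 to 10.81 (median 10.52) in MyoD-/- samples and from 11.53 to 12.13 (median 11.83) in wild type samples. Neither overlapped, and the changes were -1.197 ± 0.13 and -1.46 ± 0.12 (adjusted p = 6.35e-09 and 1.25e-11). Of 22 progenitor and satellite cell markers, a list that shares Heyl, Hey1 and Hes1 with the Notch genes, 9 fell and 4 rose. That is 59.1% called against 22.1% of all genes. The largest of the 4 rises was that of Vcam1, the gene of the sorting marker (0.70 ± 0.11). Calcr, Tenm4 and Ptprv, given next, are among the falls. Calcr, the calcitonin receptor of quiescent satellite cells, was detected in 0 of the 18 MyoD-/- arrays and 9 of the 10 wild type ones, averaged 5.38 ± 0.43 in MyoD-/- and 7.27 ± 0.26 in wild type samples (SD) and lay at least 1.44-fold lower (adjusted p = 2.18e-14). The teneurin Tenm4 ran from 10.44 to 11.45 (median 10.79) in MyoD-/- samples and, with overlap, from 11.36 to 12.16 (median 11.68) in wild type samples, a change of -1.04 ± 0.11 (adjusted p = 3.69e-09). The receptor phosphatase Ptprv ran from 5.56 to 9.41 (median 8.20) in MyoD-/- samples and from 9.79 to 11.07 (median 10.74) in wild type samples and had the lowest fitted change of all genes (-2.55 ± 0.31, adjusted p = 1.09e-07). MyoD-/- samples were all below wild type samples but spread widely, with an SD of 1.14 against 0.47. The Ptprv probe was above background in 14 of the 18 MyoD-/- arrays and 10 of the 10 wild type ones.

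Genes of the cell surface and matrix changed both ways. Of 18 basement membrane genes 8 fell and 1 rose, and of 24 integrins, syndecans and glypicans 7 fell and 3 rose. The called shares were 50% and 41.7%, against 22.1% of all genes. Sdc2, a heparan sulphate proteoglycan, ran from 10.46 to 10.93 (median 10.80) in MyoD-/- samples and from 11.14 to 11.84 (median 11.21) in wild type samples, without overlap (-0.51 ± 0.08, adjusted p = 1.45e-05, a call lost on scaling to a common median), and the glypicans Gpc3 and Gpc1 changed by -0.52 ± 0.08 and -0.47 ± 0.07. Interstitial matrix genes had 4 falls and 2 rises of 28 (median -0.02), 21.4% called against 22.1% of all genes. The hyaluronan-binding proteoglycan Vcan fell by 0.65 (SE 0.11). After scaling to a common median 2 of the basement membrane genes fell and 1 rose, 5 of the integrins, syndecans and glypicans fell and 3 rose, and 1 of the interstitial matrix genes fell and 2 rose.

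Of 15 genes of stratified epithelia measured 7 rose and 0 fell, and the median was 0.13. Of these 7, Ppl and Sprr2k were above background in no wild type array and entered the measured genes through MyoD-/- arrays, so nothing is read from the count beside the 10.7% of all genes called higher. Trp63, the p63 factor of epithelial stem cells, ran from 7.47 to 8.996 (median 8.29) in MyoD-/- samples and from 5.86 to 7.45 (median 6.25) in wild type samples. All MyoD-/- samples were above all wild type samples (fitted change 1.69 ± 0.17, adjusted p = 3.14e-09). The Trp63 probe was above background in 6 of the 10 wild type arrays. Sprr2k, a cornified envelope protein, was above background in 18 of the 18 MyoD-/- arrays and 0 of the 10 wild type ones, averaged 7.74 ± 0.53 in MyoD-/- and 5.24 ± 0.26 in wild type samples (SD) and was at least 2.001-fold higher (adjusted p = 6.44e-10). The tight junction gene Cldn1 was detected in 16 of the 18 MyoD-/- arrays and 5 of the 10 wild type ones (1.05 ± 0.15). Periplakin, Ppl, a linker of desmosomes, rose by 1 probe alone. That probe was detected in 18 of the 18 MyoD-/- arrays and 0 of the 10 wild type ones and was at least 3.08-fold higher (adjusted p = 1.69e-12), but a second probe, detected in 9 and 2 arrays, changed by 0.19 ± 0.14 (adjusted p = 0.383).

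Markers that define keratinocytes were set beside these rises. Krt5 and Krt14 were detected in 0 arrays of either genotype. Krt1, Krt15, Dsg1a, Dsg3, Krtdap and Sfn had no probe above background in 4 or more of the 47 arrays, the filter used. Of the 3 keratinocyte markers measured 2 rose, Trp63 and Lor (loricrin, 0.57 ± 0.16). The Lor call was lost on chip sets 1 and 2 only and on chip sets 4, 5 and 6+7 only. The summed level of the 3 ran from 11.23 to 12.55 (median 11.83) in MyoD-/- and from 11.47 to 12.10 (median 11.65) in wild type samples, as log2 of the sum of linear values.

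AP-1, a dimer of Fos and Jun proteins, binds TGANTCA. Of 19 AP-1 and immediate early genes 4 rose and 2 fell, 31.6% called against 22.1% of all genes. The largest rise was Fosl1, the Fos relative Fra-1 (2.02 ± 0.21, adjusted p = 3.3e-09). It ran from 9.47 to 11.94 (median 10.97) in MyoD-/- samples and, with overlap, from 8.31 to 9.75 (median 9.09) in wild type samples. Fos fell by 0.41 on the log2 scale and Jun, Junb and Jund did not pass. The 2 named rises of largest fitted change whose promoters hold TGANTCA are Sprr2k, at chr3:92432332-92432631 (plus strand), with 2 copies, and Nmu, at chr5:76363728-76364027 (minus strand), with 1. They are shown with that motif in capitals. Nmu, a neuropeptide, ran from 7.78 to 9.99 (median 9.30) in MyoD-/- samples and, with overlap, from 6.09 to 8.04 (median 6.99) in wild type samples, a rise of 2.42 ± 0.27 (adjusted p = 1.11e-08).
Sprr2k: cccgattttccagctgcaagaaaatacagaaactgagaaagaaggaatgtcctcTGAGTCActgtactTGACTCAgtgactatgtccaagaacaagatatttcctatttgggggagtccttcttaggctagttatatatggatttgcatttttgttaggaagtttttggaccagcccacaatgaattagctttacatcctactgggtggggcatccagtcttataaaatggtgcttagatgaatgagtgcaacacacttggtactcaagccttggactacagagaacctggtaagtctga
Nmu: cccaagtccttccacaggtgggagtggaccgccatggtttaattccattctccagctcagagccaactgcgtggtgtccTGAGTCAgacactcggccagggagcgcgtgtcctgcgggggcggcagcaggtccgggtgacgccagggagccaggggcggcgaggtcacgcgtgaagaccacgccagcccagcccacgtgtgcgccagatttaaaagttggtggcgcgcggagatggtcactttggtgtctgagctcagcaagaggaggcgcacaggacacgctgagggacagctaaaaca
TGANTCA, the same on both strands, stood in 33 of the 791 promoters of called falls (4.17%), in 341 of the 7028 of genes tested (4.85%) and in 2144 of all 27025 (7.93%). CAGCTG is also found at rises. The 3 named rises with the most copies, ties again by size, are Hif1a, at chr12:73907617-73907916 (plus strand), with 2, Sprr2k with 1, and the cartilage collagen gene Col9a2, at chr4:121039316-121039615 (plus strand), with 1. Hif1a and Col9a2 are shown with CAGCTG in capitals.
Hif1a: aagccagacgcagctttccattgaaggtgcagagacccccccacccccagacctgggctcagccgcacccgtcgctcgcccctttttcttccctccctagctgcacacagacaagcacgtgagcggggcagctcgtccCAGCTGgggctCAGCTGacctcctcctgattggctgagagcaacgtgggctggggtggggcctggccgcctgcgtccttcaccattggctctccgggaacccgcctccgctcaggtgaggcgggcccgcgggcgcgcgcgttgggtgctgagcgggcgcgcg
Col9a2: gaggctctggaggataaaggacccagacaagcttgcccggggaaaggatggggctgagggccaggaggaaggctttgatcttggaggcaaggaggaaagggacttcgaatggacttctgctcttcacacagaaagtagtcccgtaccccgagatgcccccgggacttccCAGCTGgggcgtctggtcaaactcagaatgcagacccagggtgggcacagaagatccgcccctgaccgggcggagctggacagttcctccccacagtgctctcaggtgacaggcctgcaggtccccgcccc

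Genes that guide axons changed both ways: of 43 measured 12 rose and 5 fell, where 10.7% and 11.4% of all genes did. The growth cone protein Gap43 ran from 9.38 to 10.28 (median 9.94) in MyoD-/- samples and from 8.18 to 9.22 (median 8.55) in wild type samples. It separated the genotypes at 1.18 ± 0.10 (adjusted p = 4.81e-11). Sema4b, Unc5c and Rgmb rose by 1.14, 1.14 and 0.997, genes named after their values were seen, of which Unc5c was above background in 2 of the 10 wild type arrays. The netrin family gene Ntn5 ran from 9.49 to 10.75 (median 10.41) in MyoD-/- samples and from 10.82 to 12.17 (median 11.69) in wild type samples, a change of -1.55 ± 0.16 (adjusted p = 3.36e-09), with no overlap. The semaphorin Sema6b (-1.46 ± 0.16) and the semaphorin receptor Plxna2 (-0.55 ± 0.09) fell as well. The median of the 43 was 0.09, but -0.01 with the median scaling over probes detected on every array, so the list has no settled direction.

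Of 25 neuronal and neuropeptide genes 5 rose (3 without chip set 1) and 4 fell, 36% called against 22.1% of all genes. Beside Nmu, the secreted prokineticin Prok2 rose (1.84 ± 0.28, adjusted p = 6.16e-06), a call lost on chip sets 4, 5 and 6+7 only. Cholecystokinin, Cck, ran from 8.61 to 10.82 (median 9.97) in MyoD-/- samples and, with overlap, from 10.58 to 11.82 (median 11.41) in wild type samples and fell by 1.23 on the log2 scale (SE 0.15, adjusted p = 1.17e-07). Of 5 neuronal markers measured only Gap43 passed (20%). Tubb3, Syt1, Snap25, Elavl3, Elavl4 and Nefl had no probe above background in 4 or more of the 47 arrays. The summed level of the 5 ran from 10.04 to 10.92 in MyoD-/- and from 9.37 to 10.94 in wild type samples. Ly6h, a GPI-anchored Ly6 protein, had a clean rise: it ran from 10.93 to 12.46 (median 11.92) in MyoD-/- samples and from 9.89 to 10.29 (median 10.08) in wild type samples (1.76 ± 0.16, adjusted p = 3.86e-10), and its other probes gave 1.74 each.

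Of 33 mesenchymal transcription factors 6 rose and 1 fell, 21.2% called against 22.1% of all genes, with a median of 0.01. Osr2, a zinc finger factor of limb and tendon mesenchyme, ran from 13.65 to 14.43 (median 14.15) in MyoD-/- samples and from 12.60 to 13.55 (median 13.09) in wild type samples. Prrx1, a homeodomain factor of limb mesenchyme, ran from 9.03 to 10.19 (median 9.65) in MyoD-/- samples and from 7.28 to 8.94 (median 8.51) in wild type samples. Neither overlapped, at 1.08 ± 0.11 and 1.06 ± 0.15 (adjusted p = 3.36e-09 and 1.34e-06), and 2 other Prrx1 probes gave 0.89 and 0.80. Runx1 rose by 0.67 ± 0.15, a call lost on chip sets 4, 5 and 6+7 only, and the homeobox gene Zfhx3 fell by 0.74 (SE 0.12). Both Osr2 and Prrx1 are also on the list of fibroblast markers. Of 14 measured 2 rose and 2 fell, 28.6% called. The other 10 did not pass, Pdgfra, Dcn, Lum and Col1a1 among them. Tcf21 and Pi16 had no probe above background in 4 or more of the 47 arrays. The summed fibroblast level ran from 15.18 to 16.76 (median 15.56) in MyoD-/- and from 14.91 to 16.05 (median 15.33) in wild type samples; its part in the rises was not tested.

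Hox genes carry the positional code along the trunk. Of 16 measured 3 rose and 0 fell, 18.75% called against 22.1% of all genes, and the median was -0.11. The 3 rises were in the HoxA cluster. Hoxa2 ran from 7.39 to 9.19 (median 8.47) in MyoD-/- samples and, with overlap, from 6.67 to 8.34 (median 7.72) in wild type samples, a rise of 0.98 ± 0.15 (adjusted p = 4.63e-06) and of 1.48 ± 0.16 by a second probe. Hoxa5 and Hoxa4 rose by 0.79 ± 0.15 and 0.71 ± 0.16, calls that were lost on chip sets 1 and 2 only. The other HoxA genes measured, Hoxa7, Hoxa9 and Hoxa13, did not pass. Of 24 imprinted genes 3 rose and 2 fell, 20.8% called against 22.1% of all genes. The rises were Asb4 (0.93 ± 0.16, detected in 4 of the 10 wild type arrays), Zim1 (0.72 ± 0.16) and Rasgrf1. Rasgrf1 was detected in 7 of the 18 MyoD-/- arrays and 0 of the 10 wild type ones and was too dim for a fold. The calls were lost on chip sets 1 and 2 only (Asb4) or on chip sets 4, 5 and 6+7 only (Zim1 and Rasgrf1).

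Of 27 genes of FGF signalling and ERK output 7 rose (4 without chip set 2) and 1 fell (median 0.16). That is 29.6% called against 22.1% of all genes. The receptor Fgfr1 ran from 8.42 to 10.05 (median 9.23) in MyoD-/- samples and, with overlap, from 8.23 to 9.30 (median 8.61) in wild type samples, a rise of 0.70 ± 0.11 (adjusted p = 1.07e-05). Dusp4, a phosphatase that limits ERK, rose by 0.99 ± 0.22 and the ETS factor Etv4, above background in 2 of the 18 MyoD-/- arrays and 8 of the 10 wild type ones, fell (fitted change -0.96 ± 0.19). All 3 lost the call on chip sets 4, 5 and 6+7 only. Of 37 BMP and TGF-beta genes 7 rose and 6 fell, 35.1% called against 22.1% of all genes. Without chip set 2 there were 3 rises and 3 falls, and without chip set 1 there were 3 falls. Chordin, Chrd, a BMP trap, ran from 8.56 to 10.26 (median 9.14) in MyoD-/- samples and, with overlap, from 9.46 to 10.70 (median 10.24) in wild type samples, and Bmp1, the protease that cleaves it, ran from 11.10 to 12.04 (median 11.56) in MyoD-/- samples and, with overlap, from 12.04 to 12.60 (median 12.20) in wild type samples. Both fell (-1.196 ± 0.12 and -0.75 ± 0.10, adjusted p = 2.39e-09 and 2.81e-07). Other Bmp1 probes fell by less, at -0.48, -0.37 and -0.13, the last not passing (adjusted p = 0.599).

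Chemokines and cytokines had 7 rises (4 without chip set 2) and 2 falls of 33 (median 0.19), 27.3% called against 22.1% of all genes. Ccl5 ran from 6.998 to 10.66 (median 8.81) in MyoD-/- samples and, with overlap, from 5.22 to 7.46 (median 6.82) in wild type samples. The spread was wide in both genotypes (fitted change 2.37 ± 0.52, adjusted p = 0.000912), and Ccl5 was above background in 5 of the 10 wild type arrays. Cxcl13, above background in 7 of the 18 MyoD-/- arrays, moved the other way (fitted change -1.61 ± 0.27), and both lost the call on chip sets 4, 5 and 6+7 only. Cxcl12, the ligand of Cxcr4, rose by 0.88 ± 0.13 and Il17rc, a receptor chain for interleukin 17, fell by 0.90 (SE 0.12). Other Cxcl12 probes rose by less, at 0.43 and 0.39, the latter not passing (adjusted p = 0.112). Interferon genes had 5 rises and 1 fall of 26, 23.1% called against 22.1% of all genes, and 1 to 8 rises on leaving out single samples or chip sets, with 1 without chip set 2, 4 or 5 and 8 without MyoD-/- replicate 3 or replicates 16 and 18. The fall was Rsad2, an interferon-induced antiviral enzyme, which ran from 7.81 to 9.02 (median 8.52) in MyoD-/- samples and from 9.35 to 10.22 (median 9.75) in wild type samples, without overlap (-1.17 ± 0.12, adjusted p = 3.72e-09), and the GTPase Gbp2 rose by 0.95 ± 0.17. Of the leukocyte markers 2 were measured and 0 passed. The other 16 on the array, Ptprc, Itgam and Adgre1 among them, had no probe above background in 4 or more of the 47 arrays.

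Transporters and the cytoskeleton changed in single genes. Of 144 solute carriers 13 rose and 13 fell (18.1% called, against 22.1% over all genes), and 5 rose and 5 fell without chip set 2. The rises numbered 6 to 8 without chip set 1, chip set 5, wild type replicate 6 or MyoD-/- replicate 2, and the falls 8 without chip set 5. The GABA and taurine carrier Slc6a13 ran from 7.07 to 8.96 (median 7.94) in MyoD-/- samples and, with overlap, from 5.15 to 7.10 (median 6.31) in wild type samples. Its fitted change was 1.65 ± 0.21 (adjusted p = 2.58e-07), with the probe above background in 5 of the 10 wild type arrays. The proton inositol carrier Slc2a13 ran from 8.63 to 9.41 (median 9.21) in MyoD-/- samples and from 9.81 to 10.62 (median 10.33) in wild type samples, without overlap (-1.10 ± 0.12, adjusted p = 7.01e-09). Myosin light chain kinase, Mylk, changed by 1.28 ± 0.19 and the stretch-responsive Ankrd1 by -0.96 ± 0.17. Ehbp1l1, a membrane tubule protein, ran from 8.90 to 9.88 (median 9.50) in MyoD-/- samples and from 7.46 to 8.35 (median 7.85) in wild type samples, apart in every sample (1.59 ± 0.11, adjusted p = 4.21e-13).

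Ribosomal, chaperone and Wnt genes were seldom called. Of 59 cytoplasmic ribosomal protein genes 3 rose and 1 fell, 6.78% called against 22.1% of all genes. Of 34 endoplasmic reticulum chaperone and stress genes 3 rose and 1 fell (11.8%). Of 33 Wnt pathway genes 2 rose and 2 fell (12.1%). Among markers of other cells, 1 of 10 endothelial markers rose and 2 fell (30%), and 0 of 4 erythroid markers passed. Falls were called in 3 of 8 smooth muscle and pericyte markers (37.5%; Notch3, Tagln and Acta2) and in 2 of 5 Schwann and neural crest markers (40%). Of 11 tendon and cartilage markers 1 rose (9.09%), Col9a2, a call lost on chip sets 4, 5 and 6+7 only. Of 4 adipocyte markers 1 rose and 1 fell (50%). The erythroid sum ran from 13.22 to 15.61 (median 14.93) in MyoD-/- and from 12.86 to 15.50 (median 14.01) in wild type samples. The smooth muscle and pericyte sum, which Notch3, Tagln and Acta2 enter, ran from 14.42 to 15.09 (median 14.90) in MyoD-/- and from 15.09 to 15.61 (median 15.21) in wild type samples. Among genes named here with several probes, no other probe of Cdkn1a, Dusp4, Gbp2, Igfbp4, Kremen1, Myog, Pfkl, Ppl, Rb1 or Sf3b4 passed.

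**Figure D4:**
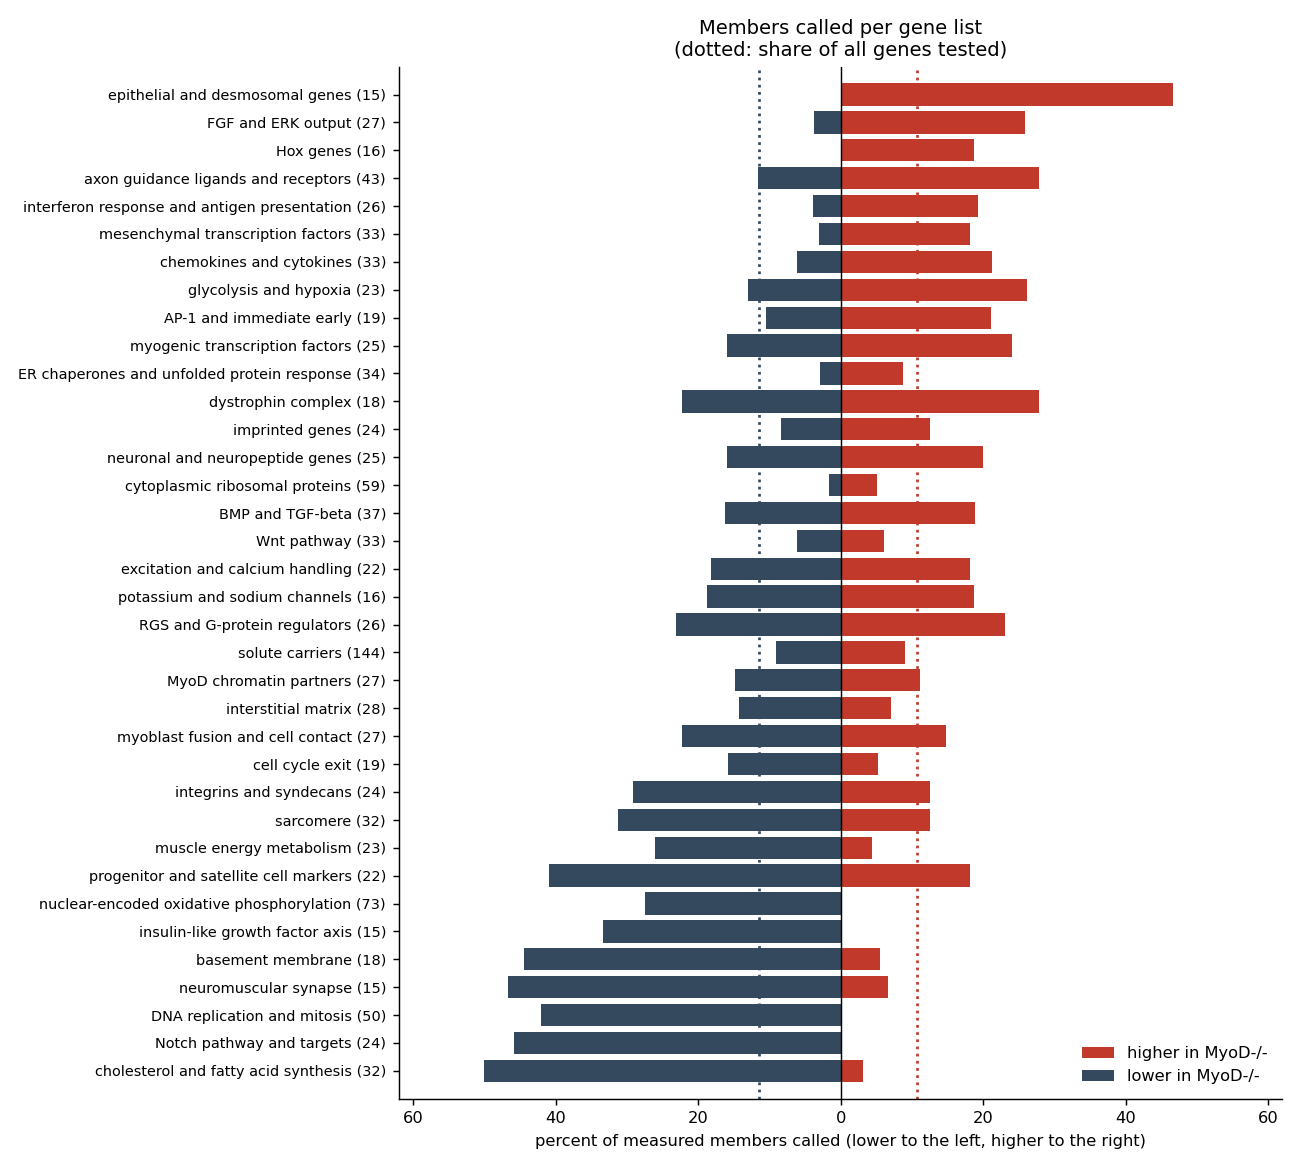
Share of each plotted list's measured members (number in brackets) that were called higher in MyoD-/- (red, right) or lower (dark, left), in percent; the dotted lines are the shares over all genes tested, 10.7% and 11.4%. Cholesterol and fatty acid synthesis has 16 of 32 members lower. Epithelial and desmosomal genes have 7 of 15 higher, but nothing is read from that share. Ppl and Sprr2k, among the 7, were above background in no wild type array and entered the measured genes through MyoD-/- arrays.

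The effect of MyoD loss was compared between chips, sets 1 and 2 (6 MyoD-/- and 6 wild type samples) against sets 4, 5 and 6+7 (6 and 3 samples). The effects differed in 18 of 8658 genes (0.208%), 15 of them with a lower change on sets 4, 5 and 6+7, while 821 had an unadjusted p under 0.05. Sel1l3 had opposite signs, 1.14 ± 0.20 on sets 1 and 2 and -1.21 ± 0.24 on sets 4, 5 and 6+7 (difference -2.35 ± 0.31, adjusted p = 0.000104). Its probe was above background in 11 of the MyoD-/- arrays and 4 of the wild type ones. Etv2, an ETS factor, Atp1b4 and Ptgds also differed (adjusted p 0.000104, 0.000858 and 0.001), but they were detected in 0, 1 and 1 of 18 MyoD-/- arrays and in 4 of 10 wild type arrays each, so no change is given. With arrays scaled to a common median 16 genes differed, 7 of them among the 18; Sel1l3, Etv2, Atp1b4, Ptgds and Kirrel3 were among the 7.

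Muscle genes stood among the 18. Chrna1 changed by -0.53 ± 0.14 on sets 1 and 2 and by -1.61 ± 0.18 on sets 4, 5 and 6+7 (adjusted p of the difference 0.0361). The calcium pump Atp2a1 changed by 0.49 ± 0.19 and -0.92 ± 0.24 and the light chain Myl1 by 0.11 ± 0.15 and -0.97 ± 0.19, members of the 18 named after their values were seen (adjusted p 0.040 and 0.0489). Scaling to a common median ended the calls of Chrna1, Atp2a1 and Myl1, which then had an adjusted p of 0.0521, 0.0901 and 0.0841. Over the 32 sarcomere genes the median was 0.01 on sets 1 and 2 and -0.57 on sets 4, 5 and 6+7. In fits to each alone 6 and 18 members fell, and 5 and 1 rose. For the 32 sterol and fatty acid genes the medians were -0.43 and -0.40. Kirrel3 rose on both, with fitted changes of 1.63 ± 0.19 and 2.99 ± 0.23, and was above background in 5 of the 10 wild type arrays. The summed level of differentiated myofibre markers ran from 14.89 to 15.66 (median 15.44) in MyoD-/- samples. In wild type samples it ran from 13.96 to 15.82 (median 14.59). Linear values are summed, so bright genes weigh most, and Myh8 alone averaged 14.31 in MyoD-/- and 12.63 in wild type samples. Of 11 members 1 was higher, Myh8, and 5 were lower, 54.5% called against 22.1% of all genes. The median change of the 11 was -0.42. The part of the summed level in the difference between the chips was not tested.

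**Figure D5:**
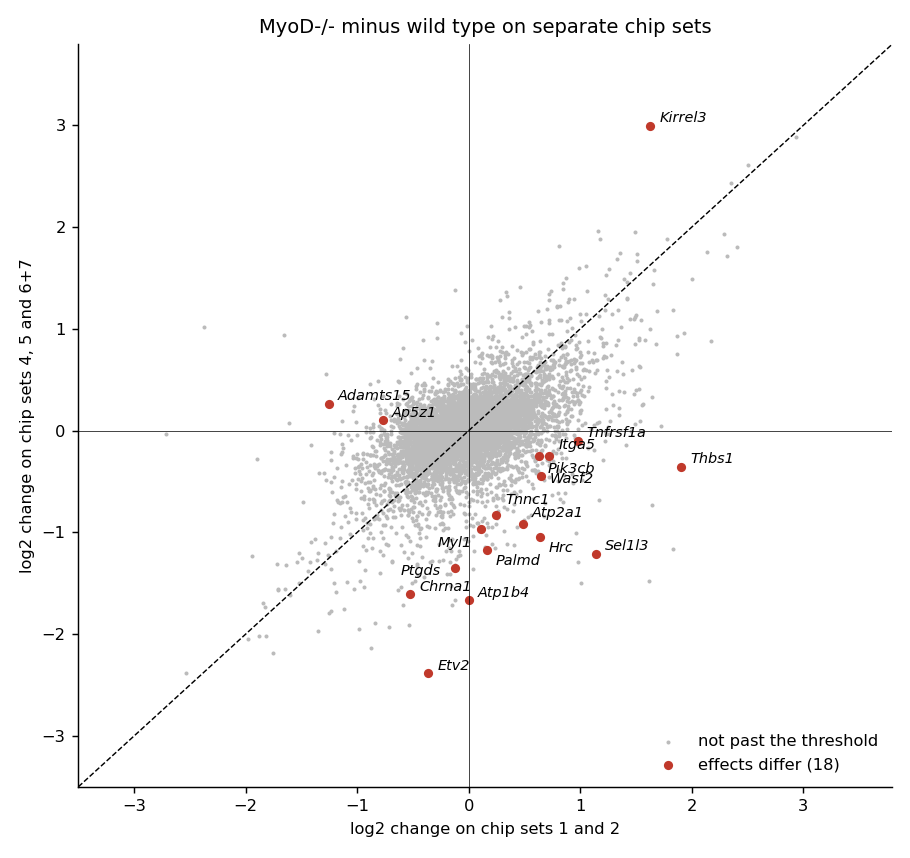
Log2 change (MyoD-/- minus wild type) on chip sets 1 and 2 (x axis) and on chip sets 4, 5 and 6+7 (y axis) for 8658 genes; the dashed line marks equal change. The 18 genes whose effects differed are named, and 15 of them lie below the line.

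Within genotype and chip set, the genes whose levels followed Myod1 most closely over the 25 samples were Sf3b4 (r = 0.71), Acad10 (0.69), Plin2 (0.67), Tpm3 (0.65), Rtn4 (0.65) and Spry1 (0.65). These are the highest of all genes tested, given as a description; samples of the same chip are not independent. Acad10 was above background in 3 of the 18 MyoD-/- arrays and 0 of the 10 wild type ones, and Spry1 in 2 and 3.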

How the data were processed

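Illumina bead array intensities, not normalised, and a detection p-value per probe and array were used as deposited, per the file headers; GenomeStudio 2010.1 made them, per the submitters' processing notes. The processed values deposited by the authors, normalised intensities with a normalisation that no source used here gives, were tried as an alternative (floored at 16; column medians 37.0 to 38.1).

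With R 4.3.3 and limma 3.58.1 the intensities of all 47 arrays were background-corrected by normexp from the detection p-values (offset 16), quantile-normalised and put on the log2 scale (neqc). Probes with a detection p under 0.01 in at least 4 arrays were kept, 12482 of 25697, and the brightest stood for its gene, which gave 8658 genes. Of all probes 23978 had 1 gene symbol in GEO's platform annotation, 0 several and 1719 none, and 23962 matched a RefSeq gene. Of 2244 genes with several kept probes, 54 are named, and 73 of their 74 other probes moved the same way. 1 Smad1 probe did not.

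Arrays at the same position of chips 6 and 7 were taken as repeats and averaged. Their deviations correlated with a median of 0.51, but only 7 of 12 arrays matched their partner best and 2 of 6 pairs were of unlike sex, so every array was also kept as its own sample. All 5 genotypes (41 samples) were fitted with chip set as a fixed term (31 residual degrees of freedom). Changes are MyoD-/- minus wild type, tested with limma's lmFit and eBayes, two-sided, and adjusted by Benjamini-Hochberg over all genes, with 0.05 as the threshold. The labels do not say that samples came from separate embryos, so p-values measure the spread between these samples. The number of arrays limits the precision. Intensities of different probes were not compared.

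Members and lists were chosen with earlier results of these data known. Named genes were Myod1 and the 15 largest rises and falls among called genes (predicted genes passed over). Up to 4 called members per list by adjusted p and the 4 genes that differed most between chip sets were added. So were up to 8 detection switches each way and the 6 genes most like Myod1. On simulated data with 8658 genes the fit called 45 of 67 genes changed by 0.5, 65 of 67 changed by 1 and 66 of 66 changed by 2, with 4 false calls among 8458. Replicate numbers were checked as pairs: the deviations of same-numbered arrays correlated between -0.36 and 0.10, so they were not treated as paired.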

Additional observations from a re-analysis of the deposited data

Results flagged for a closer look

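Among 174 named genes, 11 had a wild type sample that stood apart by Dixon's test, which chance gives in about 1 of 20 groups (the value given is the gap to the nearest sample over the range of the 9; the larger MyoD-/- group was not tested). Wild type replicate 4 was low for Ccl5 (0.537) and Myh8 (0.578) and high for Nfkbiz (0.535). Replicate 1 was low for Rbp7 (0.527), Kremen1 (0.503), Ltbp1 (0.505), Rgs8 (0.514) and Prrx1 (0.636). Replicate 8 was high for Lpl (0.655) and low for Chac1 (0.543), and replicate 6 was high for Lor (0.534). Leaving out each of these replicates in turn kept the calls of all 11 genes.

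The effect of MyoD loss differed between chip sets 4, 5 and 6+7 and chip sets 1 and 2 in 6 named genes, by limma's interaction term. The difference was 1.36 for Kirrel3 (adjusted p = 0.040), -1.08 for Chrna1 (0.0361), -2.35 for Sel1l3 (0.000104), -2.02 for Etv2 (0.000104), -1.67 for Atp1b4 (0.000858) and -1.23 for Ptgds (0.001). Etv2, Atp1b4 and Ptgds were above background in 0, 1 and 1 of 18 MyoD-/- arrays, so their differences are of signals near background. Kirrel3 was above background in 5 of the 10 wild type arrays.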

How the results depend on the processing

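The 1914 calls (929 higher, 985 lower) became 1172 with arrays scaled to a common median (370 lower, and 802 higher, 68.4% against 48.5%), 1170 with no chip term (563 and 607), 1216 on chip sets 1 and 2 only (609 and 607), 846 on chip sets 4, 5 and 6+7 only (350 and 496) and 885 without chip set 2 (415 and 470). Scaling over the probes detected on every array, chosen after seeing the data, gave 1924 calls, 40.9% of them higher. The other alternatives, among them the deposited values, other filters, sex as a covariate, array weights and leaving out another chip set, gave 1373 to 2802. Leaving out each sample gave 1628 to 2071 calls, 782 to 1005 higher and 846 to 1066 lower. Myod1 fell past the threshold under every alternative run.

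With the replicate number as a block, 730 genes were called (359 higher, 371 lower; 677 shared), with 5 residual degrees of freedom; the numbers pair no samples by the check used. The chip set difference was called in 7 genes with MyoD-/- and wild type samples only, in 35 with every array as its own replicate and in 16 (7 shared) with arrays scaled to a common median, against 18.

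Of 168 called named genes besides Myod1, 82 kept the call under all 48 alternatives and 154 on leaving out each sample. On chip sets 4, 5 and 6+7 only, the sign turned for 2 of them, Rpsa (0.000853) and Col5a3 (-0.13), and for Sel1l3 (-1.21), which is not called over all chip sets. Atp1b4 turned on chip sets 1 and 2 only and with the replicate block (0.0014 in both). Fewer samples enter those fits; beyond that the cause was not tested. Genes near background have bounds at most.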
